A study of Mus musculus with 15 samples.

Results

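The genes described here make, break down and sense prostaglandins. They are Pla2g4a, Ptgs1, Ptgs2, Ptges, Ptgis, Hpgd, Ptger2, Ptger3, Ptger4 and Ptgfr, 10 genes of the 27647 gene names on the array. Their 18 probes, of 41121 kept, were the non-control probes that carried one of these names or a RefSeq accession whose current symbol is one of them. All 10 genes were among the 20310 that could be tested, because the brightest probe of each was well above background on every array of at least 1 group.

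The tissue was the uterus of ovariectomized mice of the outbred CD-1 strain, in which the ovarian source of estrogen has been removed from every group, controls included. Mice received 100 µl of saline as vehicle, or the same volume with 250 ng of E2 or 250 ng of E3, and uteri were taken after 2 h or 24 h. E2 and E3 are taken to mean estradiol and estriol, which differ by a hydroxyl group that estriol has in addition. The 5 groups, vehicle and either estrogen at 2 h or at 24 h, had 3 one-colour Agilent arrays each, 15 in all. Ages are not given in the sources used here, nor is the collection time of the vehicle uteri, and nothing states that the 3 samples of a group came from different mice. The p-values therefore rest on how far these samples vary, and that variation may be technical.

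Levels are log2 signals minus the 75th percentile of the array's own non-control signals, so a level of 0 is the brightness of that percentile, and levels of different probes are not set against each other. The 75th percentile was 1053 to 1854 across arrays, and 63.05% to 80.0% of probes were well above background, lowest for E3 24 h replicate 2. Replicates of E3 24 h were the most spread: their correlations over all tested genes were 0.962 to 0.974, against 0.986 to 0.992 in the other groups, and the median SD of the 10 genes was 0.50 there against 0.28 to 0.38. All 12 epithelial, 10 stromal and 10 smooth muscle markers examined were bright enough to be tested. So were all 10 macrophage and 7 adipocyte markers, so this does not single out the labelled tissue. The vehicle arrays shared slide 1 and scan day 1, so vehicle and slide cannot be told apart, but 8 of the 12 treated arrays were scanned on that day too. Whole uteri were crushed, so fewer cells of a type and less RNA per cell cannot be told apart in any of these values.

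Prostaglandins are short-lived lipid signals. Cytosolic phospholipase A2 frees arachidonic acid from membranes, a cyclooxygenase turns it into PGH2, and a terminal synthase turns that into one final product such as PGE2 or prostacyclin. The product acts near its source on G protein-coupled receptors until the dehydrogenase encoded by Hpgd inactivates it. In the uterus these signals are known for their parts in contraction of the muscle wall, in implantation and in decidualization.

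The next 7 probes report the 5 genes with changes of more than 2-fold, and the second probes of Hpgd and Ptgfr measure the same genes a second time on the same arrays. Each line gives the first 30 of the 60 bases as the array files hold them, with the position of the whole probe in build mm7. No annotation of that build was used here, so exon and UTR positions are not given.
Ptges (chr2:30899629-30899688, minus strand): gccacttacagatgagctgtcaagatttga
Hpgd, main probe (chr8:54721339-54721398, plus strand): aagctcctttacaatggaaatatttagtaa
Hpgd, second probe (chr8:54720980-54721039, plus strand): ctcagactgcatctttactagtgtagcttt
Ptger2 (chr14:40319852-40319911, plus strand): taaatgcagtcagaccaaatgaaattcatt
Ptger4 (chr15:5059293-5059352, minus strand): aagcacattggctgtcattctgatgtgact
Ptgfr, main probe (chr3:151701401-151701460, minus strand): tgtccttgagtagaacacacatttgagttt
Ptgfr, second probe (chr3:151697688-151697747, minus strand): ctgttttctatggtcagaatataaagactg

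The promoters printed here belong to the gene that rose most and to 3 that fell. Each is the 250 bases before the RefSeq transcription start in build GRCm38.p6, read along the gene's strand. Capitals mark motif matches found on either strand: GGGCGG, the Sp1 motif, which reads CCGCCC on the opposite strand, and AGGTCA, the core motif of nuclear receptors including the estrogen receptors, which reads TGACCT.
Ptges (chr2:30903298-30903547, minus strand): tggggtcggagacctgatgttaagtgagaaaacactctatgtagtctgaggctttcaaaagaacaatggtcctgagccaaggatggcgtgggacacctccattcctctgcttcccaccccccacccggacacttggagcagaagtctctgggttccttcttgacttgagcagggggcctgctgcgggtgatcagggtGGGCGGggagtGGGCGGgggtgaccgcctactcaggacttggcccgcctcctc
Hpgd (chr8:56294302-56294551, plus strand): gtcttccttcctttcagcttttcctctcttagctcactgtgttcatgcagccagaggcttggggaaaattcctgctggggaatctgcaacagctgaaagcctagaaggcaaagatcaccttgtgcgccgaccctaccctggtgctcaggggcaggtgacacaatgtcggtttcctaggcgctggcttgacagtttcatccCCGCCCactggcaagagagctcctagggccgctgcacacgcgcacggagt
Ptger4 (chr15:5244188-5244437, minus strand): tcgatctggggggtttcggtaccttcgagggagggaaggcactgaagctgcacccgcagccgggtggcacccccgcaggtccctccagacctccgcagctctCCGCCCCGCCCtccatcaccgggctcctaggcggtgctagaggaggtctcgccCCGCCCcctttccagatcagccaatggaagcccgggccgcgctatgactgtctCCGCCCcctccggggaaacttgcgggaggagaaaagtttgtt
Ptgfr (chr3:151837529-151837778, minus strand): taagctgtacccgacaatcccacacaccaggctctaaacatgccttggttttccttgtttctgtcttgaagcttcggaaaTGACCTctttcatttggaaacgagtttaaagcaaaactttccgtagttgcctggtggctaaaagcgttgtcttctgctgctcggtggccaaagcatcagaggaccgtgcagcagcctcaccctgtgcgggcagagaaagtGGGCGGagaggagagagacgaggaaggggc

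A promoter was at hand for 9 of the 10 genes, 10 windows in all because Pla2g4a has 2, and Ptgis had none. The Sp1 motif was present in 6 of these genes, Ptgs2, Ptges, Hpgd, Ptger3, Ptger4 and Ptgfr, and in 32.7% of all 32851 windows of the same length. Ptges held 2 matches, at positions -53 and -42 from the start, and Ptger4 held 4, of which the first 2, at -148 and -143, overlap by 1 base. AGGTCA was found at -170 in Ptgfr and at -206 in one promoter of Pla2g4a, against 14% of all windows. The full palindromic estrogen response element, searched as GGTCANNNTGACC, was in 0.0639% of all windows and in 0 of these 10. The AP-1 motif TGANTCA (6.75% of all windows) and the cyclic AMP response motif TGACGTCA (1.55%) were also in 0 of the 10, and TATAAA (12.4%) was in 1, the second Pla2g4a promoter. A match is a description of letters in this window, and a missing one says only that the letters are not in it.

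**Figure D1:**
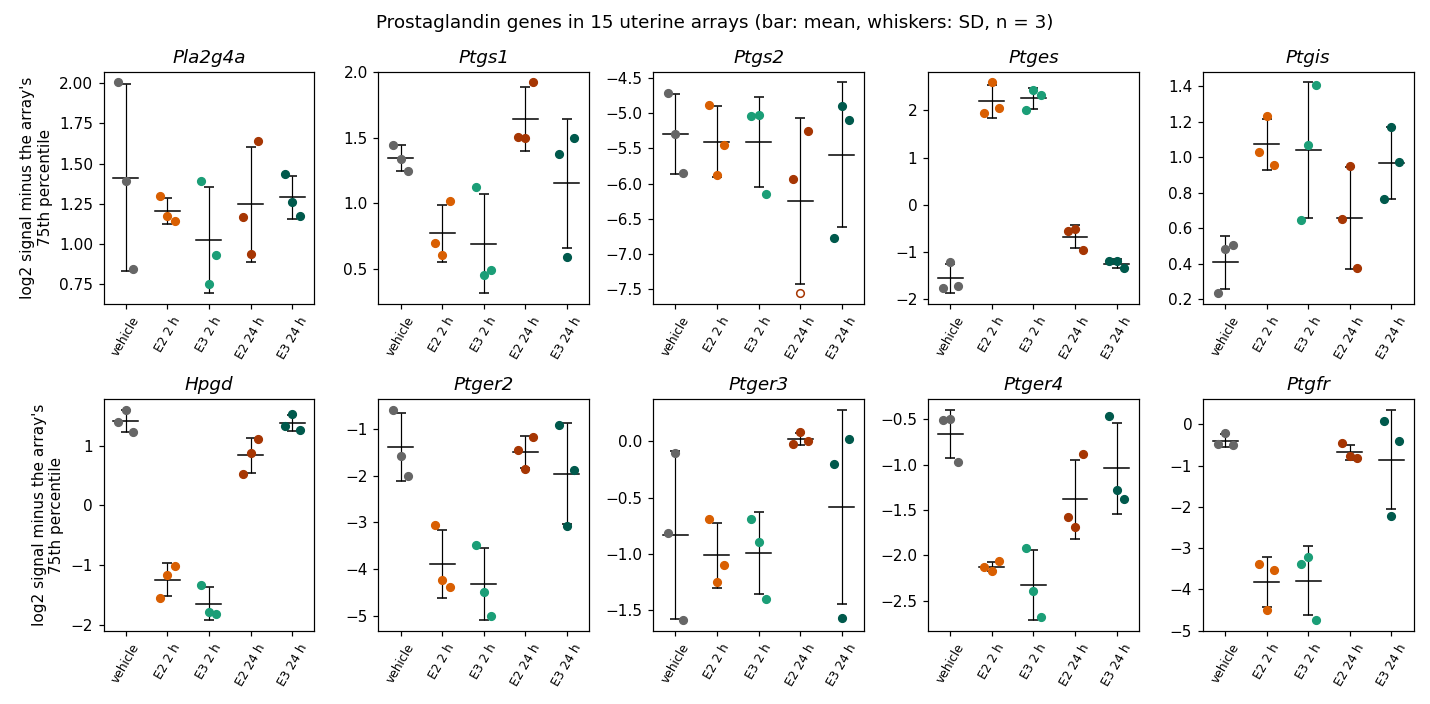
Levels of the 10 genes on all 15 arrays. Each panel has its own vertical axis, the log2 signal minus the array's 75th percentile, and shows 3 arrays per group as points, with the mean as a bar and the SD as whiskers; the 1 open point is an array on which the probe was not well above background. Ptges is high and Hpgd, Ptger2, Ptger4 and Ptgfr are low in both 2 h groups, and for these genes the 24 h means lie nearer to vehicle.

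At 2 h, 6 of the 10 genes were called with either estrogen. The synthase gene Ptges rose 13.5-fold with E2 and 14.1-fold with E3, while the dehydrogenase gene Hpgd fell 6.28-fold and 8.31-fold, and the receptor genes Ptger2, Ptger4 and Ptgfr fell by 2.76-fold to 10.7-fold. Ptgis also rose, and neither cyclooxygenase gene, nor Ptger3 or Pla2g4a, was called. Called means a limma p under 0.05 after Benjamini-Hochberg adjustment over all 20310 genes. With E2, 2 of the 10 genes were called higher and 4 lower, against a background of 15.5% of all tested genes higher and 23.1% lower. With E3 the same counts were 2 and 4, against 16.6% and 23.6%; both comparisons use the same vehicle arrays. The 3 arrays of the treated group lay wholly above or below vehicle for 7 of the 10 genes with either estrogen, against 55.5% of all genes for E2 and 55.6% for E3. The median change of the 10 genes was -0.39 with E2 and -0.52 with E3, against -0.14 and -0.16 over all genes. Their median size of change was 1.06 and 1.16 against 0.42 and 0.44. The 10 genes were chosen with earlier results of these data known. A larger size is thus no evidence that they respond more than other genes. Scaling by the array median instead raised the median change of all genes by over 0.1, from -0.14 to 0.04 for E2 2 h, from -0.16 to 0.08 for E3 2 h, from -0.02 to 0.20 for E2 24 h and from -0.004 to 0.14 for E3 24 h.

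**Figure D2:**
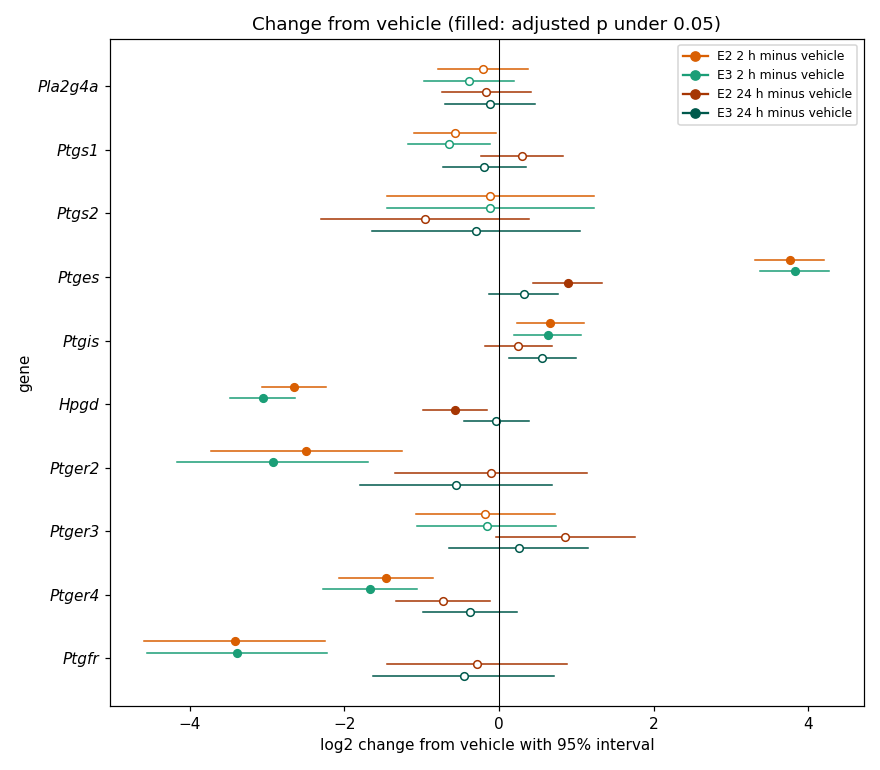
Change of each gene from vehicle, on the log2 scale, with its 95% interval from limma (3 arrays per group). Colours are the 4 treated groups and filled points have an adjusted p under 0.05. Both 2 h groups are far from 0 for Ptges, Hpgd, Ptger2, Ptger4 and Ptgfr, and 2 of the 24 h points are filled, Ptges and Hpgd with E2.

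Release of arachidonic acid starts with Pla2g4a, the cytosolic phospholipase A2. Its level was 2.00, 1.39 and 0.84 on the vehicle arrays, 1.30, 1.18 and 1.14 with E2 at 2 h, and 1.39, 0.75 and 0.93 with E3 at 2 h. At 24 h it was 1.17, 0.93 and 1.64 with E2 and 1.44, 1.26 and 1.18 with E3. All but 1 of the treated arrays lay within the vehicle range, and no comparison with vehicle was called, with changes of -0.21, -0.39, -0.16 and -0.12 (SE 0.27, adjusted p 0.271 or more in limma) in the order E2 2 h, E3 2 h, E2 24 h, E3 24 h. With array weights, which give less weight to arrays that vary more, the E3 2 h change was -0.51 and called (adjusted p = 0.0378). A second probe of the gene gave -0.29, -0.54, -0.35 and -0.39.

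The cyclooxygenases commit arachidonic acid to the prostanoid pathway, Ptgs1 as the form most tissues express steadily and Ptgs2 as the inducible form. Ptgs1 stood at 1.44, 1.34 and 1.24 in vehicle, at 0.70, 0.60 and 1.02 with E2 at 2 h and at 1.13, 0.46 and 0.49 with E3 at 2 h. Every 2 h array was below every vehicle array, yet the changes of -0.57 ± 0.25 (SE, n = 3 per group) and -0.65 ± 0.25 did not pass the test (limma adjusted p = 0.0846 and 0.0513). The calls depended on the processing. With E2 the fall was called with array weights (-0.43, adjusted p = 0.0147), in a fit of E2 2 h and vehicle alone (-0.57, adjusted p = 0.0199) and on scan day 1 alone (-0.53, adjusted p = 0.0341). With E3 it was called under quantile normalization, normexp background, the filter on all 15 arrays, trended and robust variances, array weights, the replicate number or the scan day as a block, the 2 groups alone, scan day 1 alone, and without E3 2 h replicate 1, at -0.65 to -0.87 (adjusted p from 0.00149 to 0.0473). The array median as the scale gave -0.39 and -0.41, neither called (adjusted p = 0.211 and 0.183). At 24 h Ptgs1 was 1.51, 1.50 and 1.92 with E2, above all vehicle arrays but not called (change 0.30, adjusted p = 0.347), and 1.38, 0.59 and 1.50 with E3, which overlapped vehicle.

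Ptgs2 gave a dim signal throughout, between -4.72 and -7.56, and its probe was not well above background on E2 24 h replicate 2. The levels were -4.72, -5.30 and -5.85 in vehicle, -4.88, -5.87 and -5.46 with E2 at 2 h, and -5.04, -5.03 and -6.14 with E3 at 2 h. The groups overlapped at both times, and the 2 h changes were -0.11 with either estrogen (SE 0.62, 95% interval -1.45 to 1.23), which covers changes of 2-fold in either direction. At 24 h the levels were -5.94, -7.56 and -5.25 with E2 and -6.77, -4.90 and -5.10 with E3, with changes of -0.96 and -0.30 (adjusted p = 0.23 and 0.759). The second probe, spotted 10 times on the array, gave -0.12 and 0.06 at 2 h and -0.71 and -0.17 at 24 h. The difference between Ptgs2 and Ptgs1 on the same array moved by 0.50 at 2 h and -0.68 at 24 h relative to vehicle (exact two-sided permutation p = 0.202 and 0.429, adjusted over 6 tests 0.304 and 0.514).

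Ptges encodes the inducible microsomal synthase that makes PGE2. Its level was -1.77, -1.21 and -1.72 in vehicle. It rose to 1.94, 2.60 and 2.05 with E2 at 2 h and to 2.00, 2.43 and 2.34 with E3 at 2 h. No 2 h array came within 3 log2 units of any vehicle array. The change was 3.76 ± 0.21 (SE, n = 3 per group; limma adjusted p = 1.64e-07) for E2 and 3.82 ± 0.21 (adjusted p = 1.39e-07) for E3. Each was the 84th largest rise among all tested genes. With E2 at 24 h it was -0.55, -0.51 and -0.96, still above every vehicle array, a rise of 0.89 ± 0.21 (adjusted p = 0.00423; 1.85-fold). With E3 at 24 h it was -1.20, -1.20 and -1.35, which overlapped vehicle, a change of 0.32 that was not called (adjusted p = 0.287). In the order of mean levels the 2 h groups with E3 and E2 came first and did not differ beyond their spread, followed by E2 24 h, E3 24 h and vehicle, of which the last 2 overlapped. On scan day 1 alone the 2 h rises were 3.89 and 3.95.

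Ptgis, which encodes prostacyclin synthase, rose less. It was 0.24, 0.48 and 0.51 in vehicle, 1.03, 1.23 and 0.96 with E2 at 2 h and 0.64, 1.07 and 1.41 with E3 at 2 h, so both groups lay above vehicle. The changes were 0.66 ± 0.20 (limma adjusted p = 0.0189) and 0.63 ± 0.20 (adjusted p = 0.0235). These calls were lost without vehicle replicate 1 (0.58, adjusted p = 0.0709, and 0.54, adjusted p = 0.0842), the E2 call also without E2 2 h replicate 2 (0.58, adjusted p = 0.0741), and the E3 call also without E3 2 h replicate 2 (0.62, adjusted p = 0.062) or 3 (0.45, adjusted p = 0.106) and in a fit of E3 2 h and vehicle alone (0.63, adjusted p = 0.0522). The 24 h levels were 0.65, 0.95 and 0.38 with E2, overlapping vehicle, and 0.76, 1.17 and 0.97 with E3, all above vehicle but not called (0.56, adjusted p = 0.0633), unless the scale was the array median (0.70, adjusted p = 0.0362), variances were trended and robust (adjusted p = 0.0495) or E3 24 h replicate 1 was left out (0.66, adjusted p = 0.0465).

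Hpgd encodes the dehydrogenase that begins the inactivation of prostaglandins. Its level was 1.40, 1.60 and 1.23 in vehicle. It fell to -1.55, -1.17 and -1.01 with E2 at 2 h and to -1.33, -1.79 and -1.82 with E3 at 2 h. All 6 of these arrays were more than 2 log2 units below the lowest vehicle array. The changes were -2.65 ± 0.19 (limma adjusted p = 1.17e-06) and -3.05 ± 0.19 (adjusted p = 4.13e-07), and the second bright probe gave -2.47 and -2.90. A further probe of Hpgd was not well above background on any array and gives no level. At 24 h Hpgd was 0.53, 0.88 and 1.11 with E2, below every vehicle array, a fall of -0.57 ± 0.19 (adjusted p = 0.0307; 1.48-fold). Leaving out vehicle replicate 1, vehicle replicate 2, E2 24 h replicate 1 or E2 24 h replicate 2 ended that call, at -0.58, -0.47, -0.41 and -0.59 (adjusted p = 0.067, 0.113, 0.129 and 0.0599), and the array median as the scale gave -0.35 (adjusted p = 0.184). With slide as a random block it was -0.58 (adjusted p = 0.0505) and with scan day as a fixed block -0.57 (adjusted p = 0.0602). With E3 at 24 h the level was 1.33, 1.52 and 1.26, within the range of vehicle, a change of -0.04 (adjusted p = 0.912).

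The signals of Ptges and Hpgd thus lay on opposite sides of vehicle on every 2 h array. The level of Ptges minus that of Hpgd averaged -2.98 ± 0.18 (SD, n = 3) in vehicle and 3.67 ± 0.46 (SD, n = 6) over the 2 h arrays, a shift of 6.64. The exact two-sided permutation p was 0.0119, the smallest that 6 arrays against 3 allow, and 0.0714 adjusted over 6 tests, a value that the adjustment cannot bring under 0.05 when no other pair is as low. The 24 h shift was 0.91 (exact permutation p = 0.0714, adjusted 0.143).

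**Figure D3:**
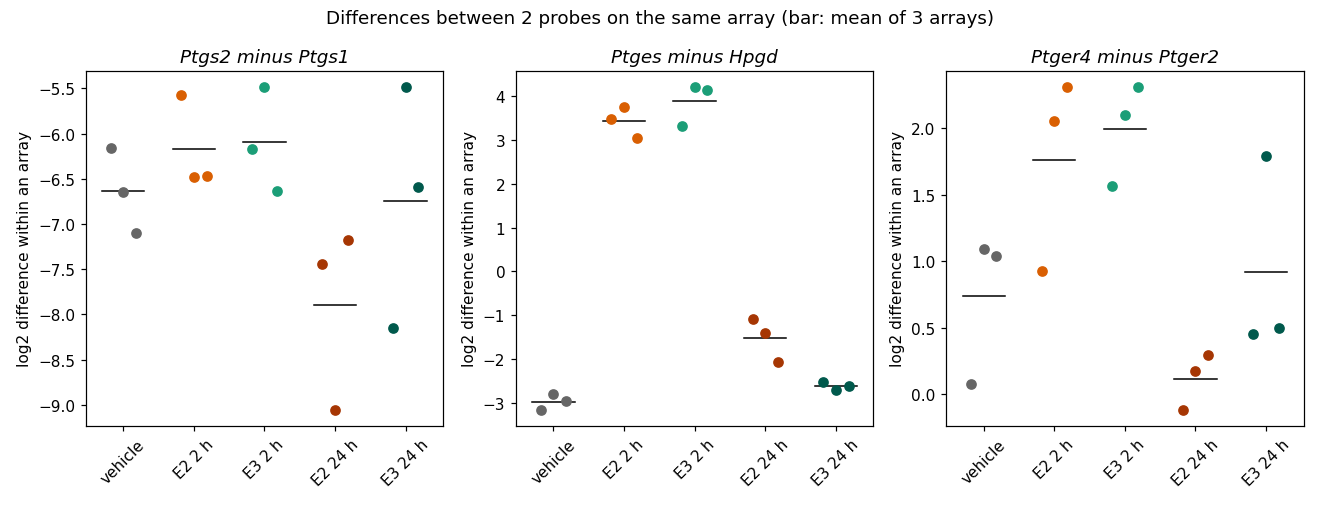
Differences between the levels of 2 genes on the same array for 3 pairs, on the log2 scale, with 3 arrays per group as points and their mean as a bar. Ptges minus Hpgd is above 3 on all 6 arrays at 2 h and below -1 on all others, while Ptgs2 minus Ptgs1 overlaps between groups.

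Of the receptor genes for PGE2, Ptger2 and Ptger4 were called lower at 2 h and Ptger3 was not, and Ptger3 was not tested against the others. Ptger2 and Ptger4 encode EP2 and EP4, which raise cyclic AMP, and Ptger3 encodes EP3, which mostly lowers it. Ptger2 varied widely in vehicle, at -0.59, -1.59 and -2.01, and was lower on all 2 h arrays, at -3.06, -4.23 and -4.38 with E2 and -3.48, -4.49 and -4.99 with E3. It changed by -2.49 ± 0.57 (limma adjusted p = 0.00419; 5.62-fold lower) and -2.93 ± 0.57 (adjusted p = 0.00144; 7.61-fold lower). At 24 h it was -1.45, -1.86 and -1.18 with E2 and -0.92, -3.07 and -1.87 with E3, which overlapped vehicle in both cases (changes -0.10 and -0.56, adjusted p = 0.90 and 0.509).

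Ptger4 fell less, and its values were tighter. It was -0.51, -0.50 and -0.97 in vehicle, -2.13, -2.17 and -2.07 with E2 at 2 h and -1.91, -2.39 and -2.68 with E3 at 2 h. The changes were -1.46 ± 0.28 (limma adjusted p = 0.00131; 2.76-fold lower) and -1.67 ± 0.28 (adjusted p = 0.000508; 3.18-fold lower). Ptger4 minus Ptger2 on the same array was 0.74 ± 0.57 (SD, n = 3) in vehicle and 1.88 ± 0.54 (SD, n = 6) at 2 h, but the exact permutation p of 0.0357 became 0.107 after adjustment over 6 tests. At 24 h Ptger4 was -1.57, -1.69 and -0.88 with E2 and -0.46, -1.28 and -1.38 with E3, and neither change was called (-0.72, adjusted p = 0.0533, and -0.38, adjusted p = 0.349). Without vehicle replicate 3 or E2 24 h replicate 3 the E2 change was -0.88 (adjusted p = 0.0422) or -0.97 (adjusted p = 0.0174). It was also called with array weights (-0.95, adjusted p = 0.00148), normexp background (-0.63), the filter on all 15 arrays and trended and robust variances (adjusted p = 0.0444, 0.0463 and 0.0453). A second Ptger4 probe was not well above background on any array.

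Ptger3 was not called against vehicle in any of the 4 treated groups. It was -0.82, -0.10 and -1.59 in vehicle, -0.69, -1.25 and -1.10 with E2 at 2 h and -0.69, -0.90 and -1.40 with E3 at 2 h, all within the vehicle range. The 2 h changes were -0.18 and -0.16 (SE 0.41), but array weights gave -0.73 (adjusted p = 0.0218), a called fall, with E2 and -0.69 (adjusted p = 0.0653) with E3. With E2 at 24 h the 3 arrays lay together, at -0.02, 0.08 and 0.00, above all vehicle arrays (change 0.86 ± 0.41, limma adjusted p = 0.113). With E3 at 24 h they were -0.20, -1.57 and 0.02 (change 0.26, adjusted p = 0.69). The array median as the scale gave a called rise of 1.07 (adjusted p = 0.0362) for E2 24 h, and so did leaving out vehicle replicate 2, at 1.22 (adjusted p = 0.0401), while array weights gave 0.38 (adjusted p = 0.316). The second bright probe gave 0.59 with E2 at 24 h but -0.32 with E3 at 24 h, opposite in sign to the first, and a probe for another transcript of the gene was well above background on 1 array. Adipocyte markers followed the same order in vehicle: the mean level of 7 such genes was 0.76, 3.32 and -1.10 on vehicle arrays 1, 2 and 3, and over all groups it ran from -1.91 to 3.32 with 0 of 7 genes called in any comparison. On E2 2 h arrays 1, 2 and 3 the mean of these markers was 2.79, 0.46 and 2.33, an order that Ptger3 shared. In the other groups Ptger3 did not share the order. The mean there was 2.16, 2.70 and -0.64 with E3 at 2 h and 1.66, -1.91 and 2.50 with E2 at 24 h. With E3 at 24 h it was 2.34, 0.68 and 1.00. The part of the adipocyte markers in the values of Ptger3 was not tested.

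Ptgfr encodes FP, the receptor for PGF2alpha, which raises intracellular calcium and drives contraction of the uterine muscle. Its level was -0.48, -0.21 and -0.51 in vehicle, -3.40, -4.51 and -3.54 with E2 at 2 h and -3.39, -3.22 and -4.75 with E3 at 2 h. These were the largest falls of the 10 genes, -3.42 ± 0.54 (limma adjusted p = 0.000335; 10.7-fold) and -3.39 ± 0.54 (adjusted p = 0.000343; 10.5-fold), the 54th and 77th largest of all tested genes. The second probe of the gene gave -3.21 and -3.23. At 24 h the level was -0.46, -0.76 and -0.82 with E2 and 0.07, -2.22 and -0.41 with E3, and the changes of -0.29 and -0.46 were not called (adjusted p = 0.693 and 0.57). The second probe gave larger falls at 24 h, -0.86 with E2 and -0.79 with E3, which were not tested. Its E2 24 h arrays, at -1.94, -2.38 and -2.69, all lay below its vehicle arrays, at -1.52, -1.30 and -1.62. Its E3 24 h arrays, at -1.42, -3.71 and -1.66, overlapped vehicle. The value of -2.22 came from E3 24 h replicate 2, the array that also gave the lowest E3 24 h values of Ptgs1, Ptger2 and Ptger3. Without it the E3 24 h changes were 0.23 for Ptgfr, -0.001 for Ptger2, 0.75 for Ptger3 and 0.09 for Ptgs1, none of them called.

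Cell type markers were read beside these falls. The shares of all tested genes to read these counts against are the 15.5% higher and 23.1% lower with E2 and the 16.6% and 23.6% with E3 given above. At 2 h, 4 of 10 stromal markers were called lower and 1 higher with E2, and 6 lower and 1 higher with E3, and the mean level of the list was 3.36 to 3.54 on 2 h arrays against 3.87 to 3.97 in vehicle. Smooth muscle markers were called for 0 of 10 with E2 and for 1 (lower) with E3, with a mean level of 3.82 to 4.28 against 3.88 to 4.36. Epithelial markers were called for 1 of 12 in each, lower with E2 and higher with E3. Endothelial markers were called lower for 1 and 2 of 10, and their mean level of 1.47 to 1.69 on 2 h arrays lay wholly below the 1.72 to 1.94 of vehicle. Erythrocyte markers were called higher for 2 of 3 with E2 and 1 of 3 with E3, with a mean level of -0.29 to 0.37 against -1.08 to -0.32. The part of any of these in the receptor values was not tested. On scan day 1 alone the falls at 2 h were -2.91 and -3.35 for Ptger2, -1.46 and -1.88 for Ptger4, -3.63 and -3.59 for Ptgfr and -2.50 and -3.21 for Hpgd, with E2 and E3 respectively.

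At 24 h few of the 10 genes were called against vehicle. With E2, 1 was called higher (Ptges) and 1 lower (Hpgd), against a background of 21.1% of all tested genes higher and 22.3% lower, and 4 of the 10 had groups that did not overlap, against 56.1% of all genes. With E3, 0 were called in limma, against 9.7% higher and 10.7% lower over all genes, with 1 gene, Ptgis, at an unadjusted p under 0.05. For 1 of the 10 genes, Ptgis, the E3 24 h and vehicle arrays did not overlap, against 36.1% of all genes. The median change was -0.13 (E2) and -0.15 (E3), against -0.02 and -0.004 over all genes. The median size of change was 0.43 (E2) and 0.31 (E3), close to the 0.47 and 0.33 of all genes. Endothelial markers were called lower for 7 of 10 with E2 at 24 h and 1 of 10 with E3, at a mean level of 1.19 to 1.34 and 1.40 to 1.76 against 1.72 to 1.94 in vehicle. Smooth muscle markers were called higher for 4 of 10 with E2 (and lower for 1) and 6 of 10 with E3. The part of these markers in the 24 h values, the fall of Hpgd with E2 included, was not tested.

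The 2 estrogens were compared at the same dose and time. At 2 h none of the 10 genes was called, and neither was any other gene: 0% of all tested genes passed in limma, with 750 at an unadjusted p under 0.05, of which 0 were among the 10. The groups did not overlap for 0 of the 10, against 12.7% of all genes. The E2 minus E3 difference was -0.06 for Ptges (95% interval -0.51 to 0.38), 0.40 for Hpgd (-0.016 to 0.82), 0.44 for Ptger2 (-0.80 to 1.67), 0.21 for Ptger4 (-0.40 to 0.81) and -0.03 for Ptgfr (-1.20 to 1.14). A difference of 2-fold is thus outside the interval for Ptges, Hpgd and Ptger4 and inside it for Ptger2 and Ptgfr, so the data do not show that both estrogens act alike on those 2 receptors.

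At 24 h, 0 of the 10 genes were called between E2 and E3, against 15.7% of all tested genes, and 2 of the 10 had an unadjusted p under 0.05. Those 2 were Ptges, at 0.57 (95% interval 0.13 to 1.02; limma adjusted p = 0.0793), and Hpgd, at -0.53 (95% interval -0.95 to -0.11; adjusted p = 0.0817). For both genes, and for Ptgs1 (0.49, adjusted p = 0.21), the 3 E2 arrays lay wholly on one side of the 3 E3 arrays, which is 3 of the 10 against 28.6% of all genes. With the replicate number as a block Ptges was called (0.57, adjusted p = 0.039) and Hpgd was not (adjusted p = 0.113). On scan day 1 alone the differences were 0.54 for Ptges and -0.30 for Hpgd, neither called. A 2-fold difference was inside the interval for Ptges, Ptgs1, Ptgs2, Ptger2 (0.46, -0.78 to 1.69), Ptger3 and Ptgfr. It was outside the interval for Pla2g4a, Ptgis, Hpgd and Ptger4.

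The E2 minus E3 difference at 24 h was also set against that at 2 h. None of the 10 was called in limma, against 6.22% of all tested genes, while 2 had an unadjusted p under 0.05: Hpgd at -0.94 (95% interval -1.53 to -0.34; adjusted p = 0.062) and Ptges at 0.64 (0.01 to 1.27; adjusted p = 0.21). The call for Hpgd was made without E2 24 h replicate 3 (-1.07, adjusted p = 0.0453), without E3 2 h replicate 1 (-1.10, adjusted p = 0.0435), with array weights (-1.20, adjusted p = 0.0117), on scan day 1 alone (-1.02, adjusted p = 0.0463), with trended and robust variances (adjusted p = 0.0464) and with the filter on all 15 arrays (adjusted p = 0.0486).

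**Figure D4:**
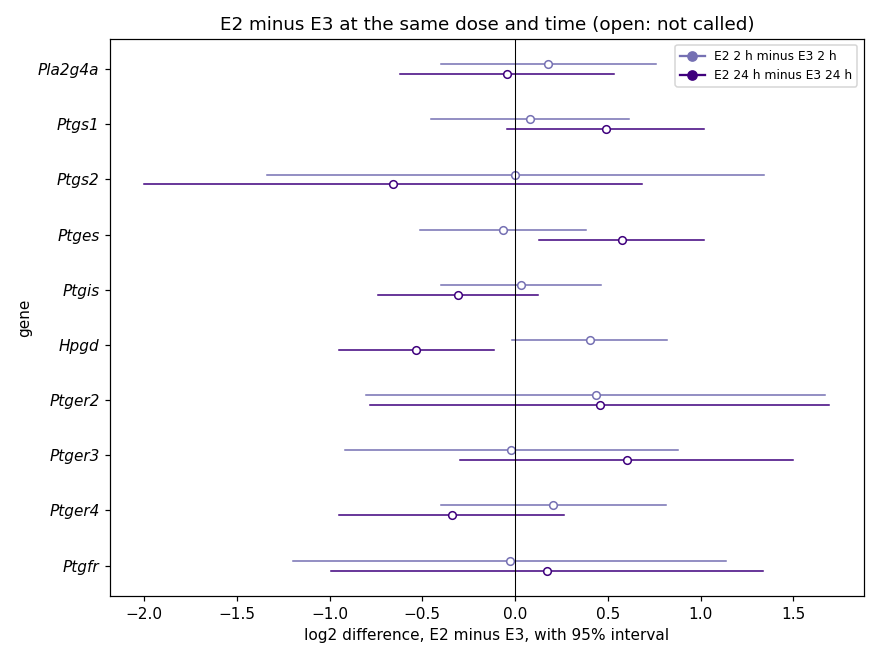
E2 minus E3 for each gene at the same dose and time, on the log2 scale, with 95% intervals from limma (3 arrays per group). At 2 h all intervals include 0; at 24 h those of Ptges and Hpgd do not, though neither passes after adjustment over all genes.

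Between 2 h and 24 h, 5 of the 6 genes called at 2 h moved back toward their vehicle levels, and Ptgis was not called. With E2, 5 of the 10 were called higher at 24 h than at 2 h and 1 lower, against 30.6% and 21.7% of all tested genes, and 8 of the 10 had groups that did not overlap, against 62.2%. With E3, 4 were called higher and 1 lower, against 29.9% and 19.8%, and the groups did not overlap for 5, against 54.2%. Ptges fell by 2.87 (E2, limma adjusted p = 7.56e-07) and 3.51 (E3, adjusted p = 2.24e-07). Hpgd rose by 2.08 and 3.02 (adjusted p = 4.47e-06 and 3.98e-07), Ptger2 by 2.39 and 2.37 (adjusted p = 0.00366 and 0.00459), Ptger4 by 0.74 and 1.29 (adjusted p = 0.0411 and 0.00245) and Ptgfr by 3.13 and 2.93 (adjusted p = 0.000386 and 0.000812). Ptgs1 rose by 0.87 after E2 (adjusted p = 0.00996), whereas the E3 difference of 0.46 was not called (adjusted p = 0.14). It was called without E3 24 h replicate 2 (0.74, adjusted p = 0.0136) or E3 2 h replicate 1 (0.68, adjusted p = 0.0417), with array weights (0.76, adjusted p = 0.0136), with scan day as a fixed block (0.70, adjusted p = 0.0391) and on scan day 1 alone (0.96, adjusted p = 0.00366). The E2 call for Ptgs1 ended with scan day as a fixed block (0.64, adjusted p = 0.0513). Ptger3 was 1.03 higher at 24 h than at 2 h with E2 and missed the threshold (adjusted p = 0.0518). It passed when only the 2 groups or only scan day 1 entered, with array weights, with trended and robust variances, with the filter on all 15 arrays, with normexp background, when scaled by array median and with slide fixed as a block, at 0.96 to 1.25 (adjusted p from 0.00284 to 0.0446). For Ptger4 the E2 call ended when any E2 2 h replicate was left out, and without E2 24 h replicate 1 or 3, at 0.49 to 0.84 (adjusted p from 0.0507 to 0.17), as it did with no filter on dim probes, slide as a random block, scan day as a fixed block and scan day 1 alone (0.62 to 0.83, adjusted p from 0.058 to 0.145). With slide as a fixed block the E2 differences were -2.84 for Ptges, 1.97 for Hpgd, 2.44 for Ptger2 and 3.26 for Ptgfr, all called, and 0.43 for Ptger4 and 0.69 for Ptgs1, not called. For E3 that block gave -3.31 for Ptges, 3.56 for Hpgd, 1.52 for Ptger4, 0.98 for Ptgfr and 0.46 for Ptger2. Of the 3 E3 24 h arrays only replicate 2 shares a slide with another group, so these values rest on that array. It had the lowest share of probes well above background, 63.05%. Without it, and with no block, the differences were 3.61 for Ptgfr and 2.93 for Ptger2.

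Other genes of the pathway were read from lists written for this purpose. Over all tested genes the shares called higher and lower were 15.5% and 23.1% for E2 2 h, 16.6% and 23.6% for E3 2 h, 21.1% and 22.3% for E2 24 h, and 9.7% and 10.7% for E3 24 h, and the share of each list is given beside its counts. Among 13 tested genes for the release of arachidonic acid, 1 was called higher (7.69%) and 4 lower (30.8%) at 2 h with either estrogen, 4 higher (30.8%) and 3 lower (23.1%) with E2 at 24 h, and 2 higher (15.4%) and 1 lower (7.69%) with E3 at 24 h. On so few genes these shares are near those of all genes. The list mixes enzymes with regulators, the inhibitor Anxa1 among them, so its counts give no direction of release. Plaa, which encodes a phospholipase A2-activating protein, rose by 0.75 (E2) and 0.65 (E3) at 2 h (adjusted p = 0.00809 and 0.0178). Pla2g15, a lysosomal phospholipase A2, fell by 0.74 and 0.72 (adjusted p = 0.000147 and 0.00017). Pla2g4e was dim, at -6.55, -4.92 and -6.64 in vehicle, and not well above background on any 2 h array. It was at least 2.76-fold lower with E2 and at least 2.70-fold lower with E3 at 2 h. Each bound was taken against the lowest signal well above background on each treated array or the probe's own, whichever was higher. Pla2g4e was well above background on no more than 4 of the 15 arrays, so it could be tested only through a group where it was high. Its calls at 2 h, which are among the counts above, therefore add no support. At 24 h Anxa1, the annexin known as an inhibitor of phospholipase A2, rose by 0.96 (E2) and 0.59 (E3) (adjusted p = 0.000912 and 0.0328). S100a10, also on the list, was 3.91, 4.13 and 4.06 in vehicle. At 24 h it was 4.83, 4.92 and 4.91 with E2 and 4.62, 4.72 and 4.61 with E3. Pla2g7, which encodes platelet-activating factor acetylhydrolase, fell by 1.18 with E2 at 24 h (adjusted p = 0.00896).

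Of 13 terminal synthases and reductases, 2 (15.4%) were called higher at 2 h with either estrogen, and 5 (38.5%) lower with E2 and 3 (23.1%) lower with E3. Ptges2 and Ptges3 encode the other PGE2 synthases, and with E3 at 2 h they rose by 0.75 and 0.41 (adjusted p = 0.0156 and 0.0125), far less than Ptges. With E2 at 2 h both also lay above vehicle. Ptges2 was 1.14, 1.26 and 1.21 against 0.54, 0.41 and 0.82, and Ptges3 was 2.56, 2.73 and 2.86 against 2.30, 2.39 and 2.34. Carbonyl reductases are a family with members that can convert PGE2 to PGF2alpha. Of their genes, Cbr3 fell by 1.27 with E2 and 1.12 with E3 (adjusted p = 6.82e-05 and 0.000172), and Cbr1 by 0.73 and 0.56 (adjusted p = 0.00113 and 0.00613). Cbr2 overlapped vehicle at 2 h. It was 5.05, 4.92 and 5.58 in vehicle, 5.06, 4.51 and 4.79 with E2 and 4.74, 4.67 and 4.95 with E3. Akr1b8, an aldo-keto reductase, fell by 1.29 with E2 (adjusted p = 0.00372). At 24 h the counts were 5 higher (38.5%) and 1 lower (7.69%) with E2 and 1 higher (7.69%) and 0 lower with E3. Cbr2 rose by 1.73, Akr1b3, an aldose reductase with PGF synthase activity, by 1.08 and Ptges2 by 0.98 with E2 (adjusted p = 0.00583, 2.47e-05 and 0.00328). Hpgds, the hematopoietic PGD2 synthase, was -1.51, -2.30 and -1.99 in vehicle and -2.62, -3.42 and -3.14 with E2 at 24 h, a fall of 1.13 (adjusted p = 0.0273).

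Among 7 tested genes of the transport and breakdown list, 2 (28.6%) were called higher at 2 h with either estrogen. Called lower were 2 (28.6%) with E2 and 1 (14.3%) with E3. The list held Hsd17b11, which lay above vehicle on every 2 h array. It was 4.43, 4.59 and 4.65 in vehicle, 5.998, 6.05 and 6.08 with E2 and 6.01, 6.20 and 6.18 with E3. Cyp4f3 was read through the name Cyp4f18. No result here ties either gene to prostaglandins, so these shares describe the list as written. Slco2a1 encodes the transporter that carries prostaglandins into cells, where Hpgd acts on them. It was 0.86, 1.04 and 0.80 in vehicle, 1.97, 2.09 and 1.76 with E2 at 2 h and 1.54, 1.80 and 2.12 with E3 at 2 h, so it rose while Hpgd fell (changes 1.04 and 0.92, adjusted p = 0.000618 and 0.00141). With E2 at 24 h it was 0.23, 0.63 and 0.09, below vehicle by 0.58 (adjusted p = 0.0197), beside the lower endothelial markers of those arrays, whose part was not tested. Abcc4, an exporter of prostaglandins and other organic anions, fell by 0.40 and 0.45 at 2 h (adjusted p = 0.013 and 0.00681). Ptgr1 encodes a reductase for the next step after Hpgd, and it rose by 1.36 with E2 at 24 h (adjusted p = 0.00674). At 24 h 2 (28.6%) were higher and 1 (14.3%) lower with either estrogen.

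Among 7 tested genes of other prostanoid receptors, 1 (14.3%) was called higher and 2 (28.6%) lower at 2 h with either estrogen, about the share of all genes, 1 higher (14.3%) with E2 at 24 h and 0 with E3 at 24 h. Ptgir, the prostacyclin receptor gene, fell beside Ptger2, Ptger4 and Ptgfr. It was -1.15, -0.72 and -1.32 in vehicle, -2.81, -3.40 and -3.01 with E2 at 2 h and -2.89, -2.56 and -3.41 with E3 at 2 h (changes -2.01 and -1.89, adjusted p = 4.90e-05 and 7.39e-05). Tbxa2r, the thromboxane receptor gene, fell by 0.64 and 1.03 at 2 h (adjusted p = 0.0481 and 0.00403) and rose by 0.68 with E2 at 24 h (adjusted p = 0.0349). Pparg, a nuclear receptor that prostaglandin metabolites can bind and a regulator of fat cell formation, was -1.48, -0.004 and -2.03 in vehicle, 1.91, 2.14 and 2.18 with E2 at 2 h and 2.02, 1.68 and 1.76 with E3 at 2 h. Its rises of 3.24 and 2.98 (adjusted p = 0.000109 and 0.000192) were followed by changes of -0.15 and 0.14 from vehicle at 24 h, which were not called. The vehicle order of Pparg was that of the adipocyte markers given above. The orders also matched within both 24 h groups but within neither 2 h group. The part of these markers in the values of Pparg was not tested.

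**Figure D5:**
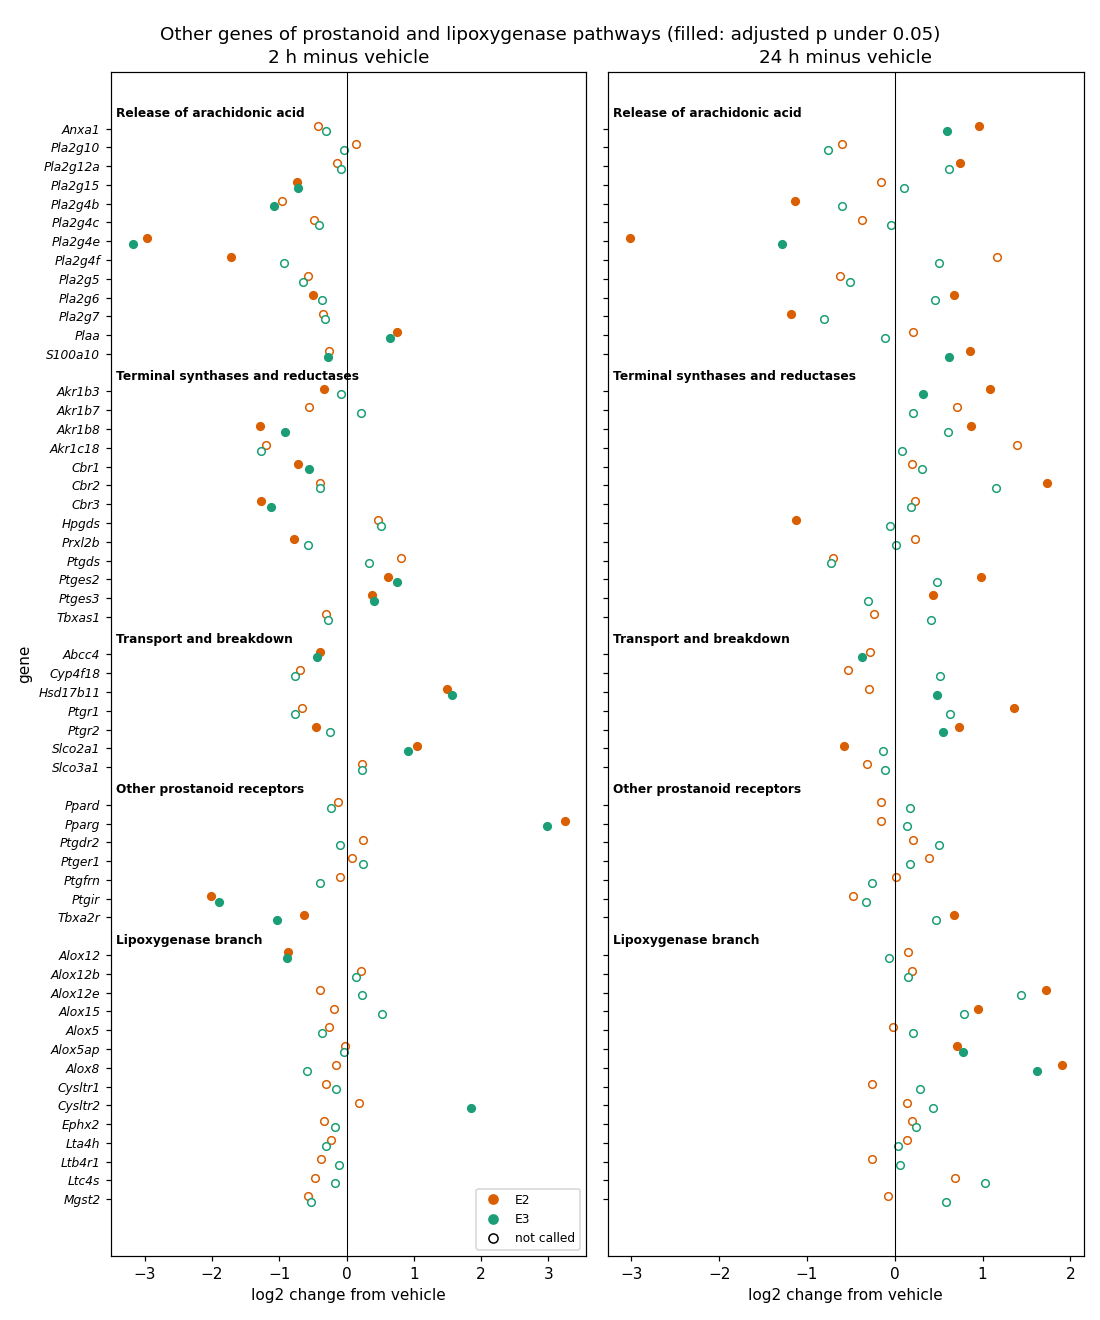
Change from vehicle of the other genes of the pathway lists at 2 h (left) and 24 h (right), on the log2 scale, one row per gene. Colours are E2 and E3 and filled points have an adjusted p under 0.05 in limma. Pparg stands out at the high end at 2 h and Ptgir at the low end. Pla2g4e lies lower still, but it was not well above background on any 2 h array. It was tested only through a group where it was high, so its points add no support. More filled points lie to the right of 0 at 24 h with E2 than with E3.

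The profiles most like each gene's, by Pearson r of levels over the 15 arrays among 14161 other genes with a symbol, are a description, since all of them share the same arrays and groups. Ptges was closest to Spty2d1 (r = 0.992), Inafm2 (0.992) and St6galnac6 (0.990). Hpgd was closest to Ahr (0.985), Mmp28 (0.981) and Zfp217 (0.978). Ptgfr was closest to Ndp (0.979), Tnfaip8 (0.978) and Akap17b (0.978), and Ptger2 to Tarsl2 (0.976), Brdt (0.976) and Ccdc14 (0.973). Ptger4 was closest to Zfp608 (0.962), and Ptgs1 to Map7d3 (0.932). The best matches were weaker for Ptger3 (Bmper, 0.927), Ptgis (C1qtnf1, 0.890), Pla2g4a (Fzd6, 0.889) and Ptgs2 (Sla2, 0.770). Among the 10 genes themselves, the levels of Ptges and Hpgd had r = -0.978 and those of Ptges and Ptgs2 0.08.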

How the data were processed

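RNA from the uteri (500 ng, Cy3) was read on 15 arrays. Each deposited value is an intensity that the authors made with Feature Extraction (9.5.3.1 per the file headers, 9.5 per the submitters' processing notes): linear, background-subtracted, spatially detrended and not normalized between arrays. The deposited series table held the same values. Outlier spots were left out, repeated spots averaged and log2 signals scaled by each array's 75th percentile over non-control spots. Names came from RefSeq accessions or current symbols. The brightest probe stood for a gene, and the dim ones are given beside it. All 15 arrays entered one linear model, with 1 mean for each group (limma 3.58.1, R 4.3.3), adjusted by Benjamini-Hochberg over 20310 genes, and checked on simulated data. Differences between genes on an array were tested by exact permutation of 6 arrays against 3.

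The 10 genes and all lists were chosen with earlier results of these data known. The genes named from each pathway list were taken from up to 4 per comparison, those called with the largest change and no overlap of groups. Not every gene that met this rule is described. Of those lists, Pla2g2a, Ptgdr and Ltb4r2 were too dim to test and Ptgr3 was not matched. Same-numbered samples of different groups did not deviate together (correlations from -0.22 to 0.21, median -0.02, 7 of 30 over 0.1), so replicate number was not in the model. The alternatives were other scalings, normexp background with an offset of 50, other filters, probe means, variance models, array weights, blocks for slide, scan day or replicate number, stricter thresholds, and leaving out each array. The number of arrays limits precision.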

Additional observations from a re-analysis of the deposited data

Results flagged for a closer look

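The difference between 24 h and 2 h under the same estrogen passed the test (limma, adjusted over all genes) for several of the genes, and these results are listed because 2 times under one contrast differed. With E2, the 24 h minus 2 h difference on the log2 scale was 0.87 for Ptgs1 (adjusted p = 0.00996), -2.87 for Ptges (7.56e-07), 2.08 for Hpgd (4.47e-06), 2.39 for Ptger2 (0.00366), 0.74 for Ptger4 (0.0411) and 3.13 for Ptgfr (0.000386). With E3 it was -3.51 for Ptges (2.24e-07), 3.02 for Hpgd (3.98e-07), 2.37 for Ptger2 (0.00459), 1.29 for Ptger4 (0.00245) and 2.93 for Ptgfr (0.000812). The background of these calls, 30.6% higher and 21.7% lower for E2, 29.9% and 19.8% for E3, shows that a difference between the times was common among all genes.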

How the results depend on the processing

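With 3 arrays per group, intervals for the change from vehicle span more than 1 log2 unit for all genes but Ptges, Ptgis and Hpgd. They are widest for Ptgs2, Ptger2, Ptgfr and Ptger3. Over 1811 alternative values for the 10 genes, 1734 kept their side of the threshold and their direction if called, 30 lost a call, 47 gained one, and 0 called values changed sign; 113 uncalled values did. The count called of 2 with E2 at 24 h became 1 with slide as a random block, with scan day as a fixed block or at an adjusted p under 0.01, and 0 with a 2-fold minimum; leaving out 1 array gave 1 to 3. The count of 0 with E3 at 24 h became 1 with the array median as the scale or with trended and robust variances, and leaving out 1 array gave 0 to 1. The count of 5 for E3 24 h minus E3 2 h became 0 with slide as a fixed block, in which 1 E3 24 h array shares a slide with another group. For the difference of differences the count of 0 became 1 with the filter on all 15 arrays, trended and robust variances, array weights or scan day 1 alone, and 0 to 1 when 1 array was left out. With the replicate number as a block, E2 minus E3 at 24 h went from 0 to 1 called (Ptges), and Ptgs1 with E3 at 2 h was called too (-0.65, adjusted p = 0.0376); no other call on the 10 genes changed under this block. Of the other pathway genes, 3 called values changed sign. Akr1b3 with E3 at 24 h was -0.21 with the mean of its probes. Alox12 and Pla2g4f were -0.22 and -0.79 for E3 24 h minus E3 2 h with slide as a fixed block. That block takes E3 24 h from replicate 2 alone. The cause of these sign changes was not tested. Of 1934 alternative values for those genes, 234 lost a call.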

Other observations

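The lipoxygenase branch uses the same arachidonic acid to make leukotrienes and hydroxy fatty acids. Of 14 tested genes, 0 were called higher and 1 lower with E2 at 2 h in limma, 1 and 1 with E3 at 2 h, 4 and 0 with E2 at 24 h, and 2 and 0 with E3 at 24 h. The shares called higher and lower were 0% and 7.14%, 7.14% and 7.14%, 28.6% and 0%, and 14.3% and 0%, against 15.5% and 23.1%, 16.6% and 23.6%, 21.1% and 22.3%, and 9.7% and 10.7% of all tested genes. In each of these 4 comparisons the share called in either direction was below that of all genes. Between 2 h and 24 h, 7 were called higher and 0 lower with E2 and 5 higher and 1 lower with E3, against 30.6% and 21.7%, and 29.9% and 19.8%, of all genes. Alox8, a lipoxygenase gene, was -5.01, -5.05 and -5.62 in vehicle, -3.39, -3.39 and -3.18 with E2 at 24 h and -3.50, -3.87 and -3.46 with E3 at 24 h, above vehicle on all 6 arrays. It rose by 1.90 and 1.61 (adjusted p = 9.87e-05 and 0.00332). Alox5ap, whose product presents arachidonic acid to 5-lipoxygenase, rose by 0.70 and 0.78 at 24 h (adjusted p = 0.0295 and 0.0379), and Alox12e and Alox15 rose by 1.73 and 0.95 with E2 (adjusted p = 0.0249 and 0.0461). Macrophage markers moved at that time as well: 1 of 10 was called higher with E2 and 6 with E3, with a mean level of 1.48 to 1.74 and 1.92 to 2.84 against 1.36 to 1.60 in vehicle, and their part in these values was not tested. At 2 h Alox12 fell by 0.86 with E2 and 0.89 with E3 (adjusted p = 0.0136 and 0.0116), and Cysltr2, a receptor gene for cysteinyl leukotrienes, rose by 1.84 with E3 (adjusted p = 0.000461).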
